A study of Mus musculus with 4 samples.

Results

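The receptors described here set the growth of blood stem cells, progenitors and myeloid cells. They are the tyrosine kinases Csf1r, Kit, Flt3 and Igf1r and the cytokine receptor chains Csf2ra, Csf2rb and Csf2rb2, with the stage marker Cd34 beside them. The 8 genes were chosen by symbol for their function, with earlier results of these data known. All 8 were found among the 18276 genes of the table. All 8 also passed the filter on low values that left 12357 genes for testing.

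The RNA came from osteoclast progenitors of fresh mouse bone marrow and was sequenced after poly(A) selection. The cells were sorted for CD115 on their surface and for the absence of B220, CD3 and Mac-1. The mice had a mixed B6;129 background. In 2 libraries they were Ptip flox/flox Mx-1Cre (Ptip_KO), and in 2 libraries WT Mx-1Cre (WT), so both groups carried the Cre. Mx-1Cre is driven by an interferon-inducible promoter that acts in many cell types of the marrow, so a deletion is not limited to the sorted cells. Ptip (gene symbol Paxip1) encodes a protein that works with the MLL3 and MLL4 histone methyltransferases. The labels name no pooling of animals, so the spread behind each p-value is that among these samples. Between the 2 Ptip_KO libraries it may be technical. The 2 WT libraries had different sex patterns, given below, so they did not come from the same animal.

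Class III receptor tyrosine kinases are single chains that pair when a ligand binds and then phosphorylate each other. Kit binds stem cell factor and Flt3 binds FLT3 ligand, and both act in stem cells and early progenitors. Csf1r, the CD115 of the sort, binds CSF1 and interleukin 34 and sustains monocytes, macrophages and osteoclasts. Receptors for GM-CSF, interleukin 3 and interleukin 5 have no kinase of their own. They join a ligand-specific alpha chain to a shared beta chain that carries the kinase JAK2.

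Kit and Flt3 were the 2 members that passed the test, and both were lower in Ptip_KO. The mean of Kit was 15.3 ± 1.18 CPM in Ptip_KO, against 61.3 ± 16.7 CPM in WT (SD, n = 2 each), so that Ptip_KO had 0.249 times the WT level. The mean of Flt3 was 38.7 ± 5.86 CPM in Ptip_KO, against 72.7 ± 7.22 CPM in WT, or 0.532 times the WT level. The 3 genes of the GM-CSF receptor family, Igf1r, Csf1r and Cd34 did not pass. CPM here are the deposited values, edgeR's CPM on the effective library size, and the test was limma on log2(CPM + 1) with Benjamini-Hochberg adjustment over all tested genes.

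By this test 2 of 8 members (0 higher, 2 lower) were called at an adjusted p under 0.05, where 6.29% of all tested genes were called (2.43% higher, 3.86% lower). By edgeR on whole reads recovered from the table, 2 members were called (0 higher, 2 lower) against 5.34% of genes (1.97% higher, 3.37% lower). By DESeq2 on the same reads, 3 were called (1 higher, 2 lower) against 15.4% of genes (6.31% higher, 9.11% lower). The groups did not overlap in 5 of 8 members (2 higher, 3 lower), and neither did they in 55.1% of all tested genes (27.7% higher, 27.3% lower), so this count is near the background. The median log2 fold change of the 8 members was −0.10, and that of all tested genes was 0.0032. With 2 samples a group, the smallest two-sided p of an exact permutation test is 0.333, and the limma p-values borrow their estimate of spread from all tested genes.

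**Figure D1:**
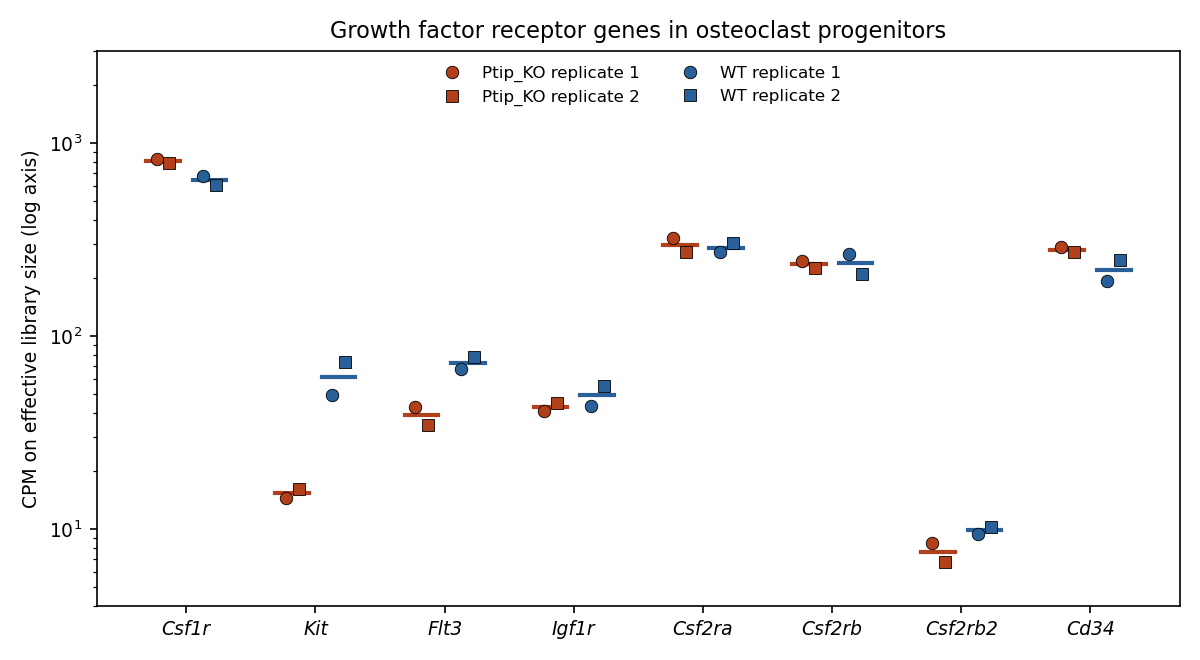
CPM on the effective library size (log axis) of each gene in the 2 Ptip_KO and 2 WT libraries, with a bar at each group mean. Kit and Flt3 were lower in both Ptip_KO libraries than in both WT libraries, with Kit at 14.4 and 16.1 CPM in Ptip_KO, against 49.5 and 73.1 CPM in WT.

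The reads recovered for the 18276 genes of the table summed to 67592972 to 77773478 a library. On the effective library size, 1 read was worth 0.0127 to 0.0143 CPM. Paxip1, the deleted gene, was at 5.10 and 3.73 CPM in Ptip_KO, against 106 and 103 CPM in WT. The labelled cell type was checked against monocyte and osteoclast progenitor markers. Irf8, a factor of monocyte commitment, had between 754 and 985 CPM over the 4 libraries, Ccr2 between 700 and 1095 CPM, and Tnfrsf11a, the receptor RANK, between 4.86 and 8.19 CPM. Itgam, the alpha chain of Mac-1, had between 35.1 and 42.1 CPM in cells sorted as negative for it, and Cd3e had at most 0.190 CPM. WT replicate 2 stood apart in sex-linked genes, with 298 CPM of Xist where the other libraries had 0.0428 to 0.0814 CPM. The Y-linked gene Ddx3y was at 0.101 CPM there, against 69.1 CPM in WT replicate 1 and 89.6 and 82.1 CPM in Ptip_KO. Both Ptip_KO libraries thus had a male pattern, while the WT group mixed a male and a female pattern, so sex was not balanced between the groups. Each result on the 8 members was therefore also computed without WT replicate 2.

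Csf1r, the gene of the sort, did not pass the test. It was at 825 and 782 CPM in Ptip_KO, against 677 and 606 CPM in WT. Both Ptip_KO libraries were above both WT libraries, and the means differed by more than either SD (804 ± 30.2 CPM in Ptip_KO, against 641 ± 50.3 CPM in WT, n = 2 each). The log2 fold change was 0.33, with a 95% interval of 0.05 to 0.60, and the limma adjusted p was 0.149. DESeq2 called it higher (adjusted p = 0.00317), edgeR did not (0.0894), and over all alternatives the adjusted p lay between 0.00317 and 0.606. The protein was the positive gate of the sort in both groups. Csf1r (ENSMUSG00000024621.15) lies on chromosome 18 at 61100598 to 61132149, and 15.1% of its exon bases overlap Hmgxb3 on the opposite strand.

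Kit showed the largest change of the 8 genes. Its level was 14.4 and 16.1 CPM in Ptip_KO, from 1098 and 1127 reads, against 49.5 and 73.1 CPM in WT, from 3650 and 5764 reads. The Ptip_KO libraries lay close together and far below both WT libraries, which differed from each other by more. Kit's log2 fold change was −1.91 (standard error 0.191) (limma adjusted p = 0.00908). Both Ptip_KO libraries were lower, and Kit ranked 108 by p among the 12357 tested genes. Without WT replicate 2, the higher of the WT libraries, the change was −1.64 on the log2 scale. With 1 WT library left, the spread comes from the 2 Ptip_KO libraries alone, so the p of such a fit is no stronger support.

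Flt3 changed less, and its groups did not overlap either. It was at 42.8 and 34.5 CPM in Ptip_KO, against 67.6 and 77.8 CPM in WT. Its log2 fold change was −0.90 (standard error 0.136) (limma adjusted p = 0.0244, lower in both Ptip_KO libraries). The limma adjusted p was highest without Ptip_KO replicate 2, at 0.0481 with a log2 fold change of −0.75, where the spread comes from the 2 WT libraries alone. By edgeR the adjusted p was 0.0201 for Kit and 0.0353 for Flt3, and by DESeq2 4.97e-17 and 4.63e-07.

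Kit (ENSMUSG00000005672.12, chromosome 5 at 75574916 to 75656722, + strand) and Flt3 (ENSMUSG00000042817.15, chromosome 5 at 147330741 to 147400489, − strand) share a chromosome with Paxip1, at distances of 47.8 and 119.5 Mb. No exon of another annotated gene overlaps theirs, and neither has a near-identical copy among the annotated transcripts. Their promoter windows are printed because these are the members that fell, so that what the windows share can be seen. Each runs from 250 bases before to 50 bases after an annotated start, 5′ to 3′ on the gene's strand (RefSeq, GRCm38.p6), and capitals mark matches to the motifs named next. RefSeq lists 2 starts for Kit, and the window of the upstream one is shown.
Kit promoter, chr5:75574737-75575036, + strand: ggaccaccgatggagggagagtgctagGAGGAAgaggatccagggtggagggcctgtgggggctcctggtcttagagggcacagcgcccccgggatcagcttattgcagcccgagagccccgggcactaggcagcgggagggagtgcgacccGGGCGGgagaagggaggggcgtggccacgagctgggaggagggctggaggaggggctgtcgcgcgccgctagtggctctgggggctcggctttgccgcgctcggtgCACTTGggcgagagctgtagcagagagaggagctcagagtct
Flt3 promoter, chr5:147400440-147400739, − strand: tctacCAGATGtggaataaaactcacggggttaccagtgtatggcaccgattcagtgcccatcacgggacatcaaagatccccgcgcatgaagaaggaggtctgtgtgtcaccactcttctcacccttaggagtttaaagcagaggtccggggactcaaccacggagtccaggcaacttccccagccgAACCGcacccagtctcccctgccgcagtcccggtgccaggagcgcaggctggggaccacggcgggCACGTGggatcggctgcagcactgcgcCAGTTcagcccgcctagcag

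The motifs searched, on both strands, were the GC box GGGCGG, the ETS motif GAGGAA of the PU.1 type, the RUNX motif TGTGGT, the GATA motif GATAA, the E-box CANNTG and the MYB motif AACNG. The Kit window held 1 GC box, 1 ETS match and 1 E-box, and the Flt3 window held 2 E-boxes and 2 MYB matches. The E-box was the motif found in both windows. It was also in the windows of Csf2ra and Csf2rb2, which were not called, and 72.3% of the 32851 promoter windows of the table hold at least 1. GC boxes occur in 35.7% of windows, the ETS motif in 28.3% and the MYB motif in 80.3%. The GC content was 69.0% in the Kit window and 61.0% in the Flt3 window, where the median window has 52.7%. CpG dinucleotides numbered 20 in the Kit window and 18 in the Flt3 window, where the median is 7. Members that were not called lay on both sides of these CpG counts. The Csf2ra window had 23 CpG at 65.3% GC, and the Igf1r window had 48 CpG at 76.0% GC. The GC content of the Csf2ra window was between those of Flt3 and Kit, and that of the Igf1r window was above both. The windows of Cd34, with 7 CpG, and Csf2rb2, with 3 CpG, were below both Kit and Flt3 in CpG and in GC content. A match describes letters only, and no binding was measured.

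Library scaling cancels in a ratio of 2 genes within a library. The Kit to Csf1r ratio was 1.75% and 2.06% in Ptip_KO, against 7.31% and 12.1% in WT, and on the log2 scale the means differed by −2.31. The Flt3 to Csf1r ratio was 5.19% and 4.41% in Ptip_KO, against 9.98% and 12.8% in WT, a difference of −1.24 on the log2 scale. In both ratios every Ptip_KO library was below every WT library. Their numerators passed the test of levels above, so these are the same data seen against the gene of the sort. Of 5 ratios examined, 4 reached the smallest exact two-sided permutation p that 2 against 2 samples allow, 0.333 (0.417 adjusted over the 5), and none could reach the threshold.

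**Figure D2:**
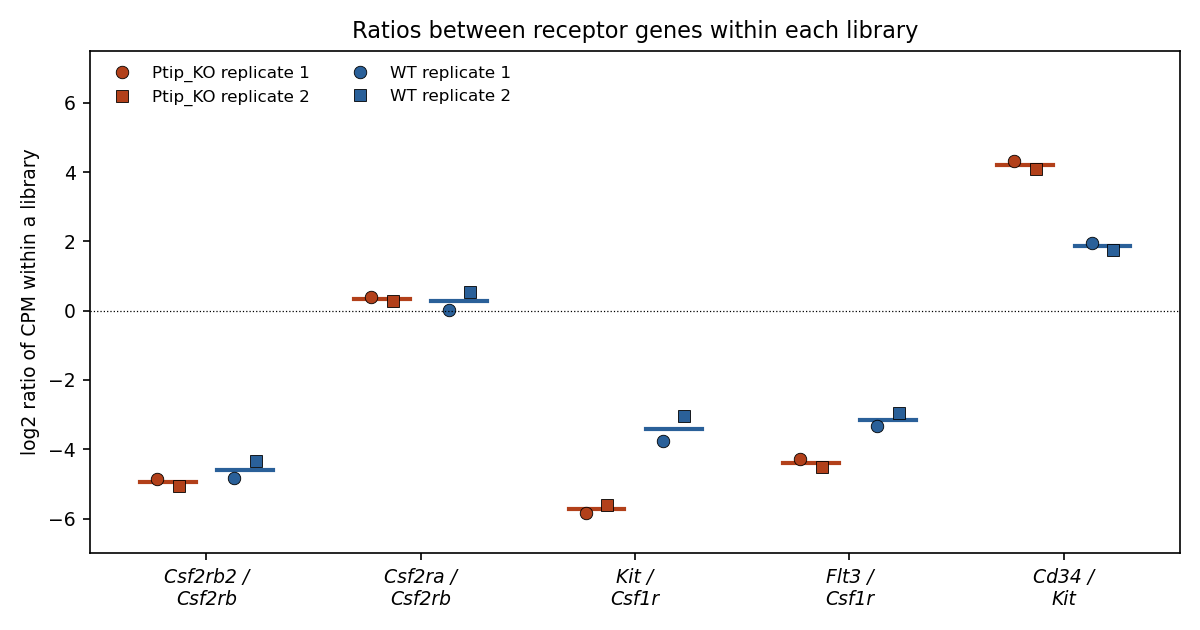
log2 ratio of CPM of 2 receptor genes within each library, with a bar at each group mean. The Kit / Csf1r and Flt3 / Csf1r ratios were lower, and the Cd34 / Kit ratio higher, in both Ptip_KO libraries than in both WT libraries, while the Csf2ra / Csf2rb ratios overlapped.

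The chains of the GM-CSF receptor did not pass the test. Csf2ra, the alpha chain that binds GM-CSF, was at 321 and 271 CPM in Ptip_KO, against 271 and 302 CPM in WT. The groups overlapped, and the log2 fold change was 0.043 with a 95% interval of −0.25 to 0.34 (limma adjusted p = 0.873). Csf2rb, the beta chain shared by the receptors for GM-CSF, interleukin 3 and interleukin 5, was at 245 and 224 CPM in Ptip_KO, against 266 and 209 CPM in WT. Both Ptip_KO values fell between the WT values, and the log2 fold change was −0.0093 with an interval of −0.35 to 0.33 (limma adjusted p = 0.977). Each interval excludes changes of the size seen for Kit and Flt3, but not changes within its own limits. The Csf2ra to Csf2rb ratio was 1.31 and 1.21 in Ptip_KO, against 1.02 and 1.44 in WT.

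Csf2rb2, a mouse beta chain that serves interleukin 3 alone, did not pass either. It was at 8.45 and 6.74 CPM in Ptip_KO, from 643 and 472 reads, against 9.40 and 10.3 CPM in WT, from 693 and 809 reads. Both Ptip_KO libraries were below both WT libraries, but the log2 fold change of −0.34 had a 95% interval of −0.70 to 0.02 and missed the threshold (limma adjusted p = 0.235). The Csf2rb2 to Csf2rb ratio was 3.44% and 3.003% in Ptip_KO, against 3.53% and 4.90% in WT. Il3ra, the alpha chain that pairs with either beta chain, was at 78.2 and 80.8 CPM in Ptip_KO, against 64.6 and 68.1 CPM in WT (log2 fold change 0.26, limma adjusted p = 0.142).

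The counts of Csf2rb and Csf2rb2 are uncertain because the genes are near copies. They lie side by side on chromosome 15, Csf2rb2 (ENSMUSG00000071714.6) at 78282507 to 78305721 and Csf2rb (ENSMUSG00000071713.5) at 78325752 to 78353847. Over 2628 aligned coding bases they were identical at 95.2% of positions, with a longest shared run of 242 bases. Of all 50-base words of the Csf2rb2 coding sequence, 26.6% also occur in that of Csf2rb, so that reads from these stretches cannot be assigned to either gene by sequence. The 90 aligned bases with the most differences are printed to show where reads can be told apart, from GENCODE M21 transcripts (GRCm38), with the 16 differing bases in capitals.
Csf2rb2, coding bases 311 to 400: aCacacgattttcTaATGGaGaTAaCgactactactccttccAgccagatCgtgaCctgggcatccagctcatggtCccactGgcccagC
Csf2rb, coding bases 308 to 397: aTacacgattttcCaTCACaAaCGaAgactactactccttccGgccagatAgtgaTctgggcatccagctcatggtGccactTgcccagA

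Igf1r, the receptor for insulin-like growth factors, did not pass. It was at 41.0 and 44.9 CPM in Ptip_KO, against 43.2 and 55.2 CPM in WT, and the groups overlapped. The log2 fold change was −0.18 with a 95% interval of −0.53 to 0.16 (limma adjusted p = 0.481). Insr, the closely related insulin receptor, was at 59.3 and 59.5 CPM in Ptip_KO, against 63.6 and 67.8 CPM in WT (limma adjusted p = 0.381). The ligand gene Igf1 was at 0.0525 and 0.114 CPM in Ptip_KO, against 0.339 and 0.342 CPM in WT, under the filter for testing. Igfbp4 was the one IGF binding protein gene that passed the filter. It was at 272 and 248 CPM in Ptip_KO, against 308 and 364 CPM in WT (log2 fold change −0.37, limma adjusted p = 0.137). DESeq2 called Igfbp4 lower (adjusted p = 0.0350), and edgeR did not call it (adjusted p = 0.147). Igf1r (ENSMUSG00000005533.10) lies on chromosome 7 at 67952827 to 68233668.

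Cd34, a sialomucin of stem and progenitor cells that is used as a stage marker, was not lower in Ptip_KO. It was at 288 and 272 CPM in Ptip_KO, against 192 and 246 CPM in WT, and both Ptip_KO libraries were above both WT libraries. The log2 fold change was 0.36 with a 95% interval of 0.03 to 0.70, and it missed the threshold (limma adjusted p = 0.184). Without WT replicate 2 it was called higher, with a log2 fold change of 0.54 (limma adjusted p = 0.0142), in a fit whose spread comes from the 2 Ptip_KO libraries alone and which calls 1620 genes in all. Without WT replicate 1 the value was 0.19. The Cd34 to Kit ratio was 19.96 and 16.9 in Ptip_KO, against 3.87 and 3.36 in WT. Cd34 (ENSMUSG00000016494.9) lies on chromosome 1 at 194938819 to 194961279, with 2.03% of its exon bases under an antisense gene.

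**Figure D3:**
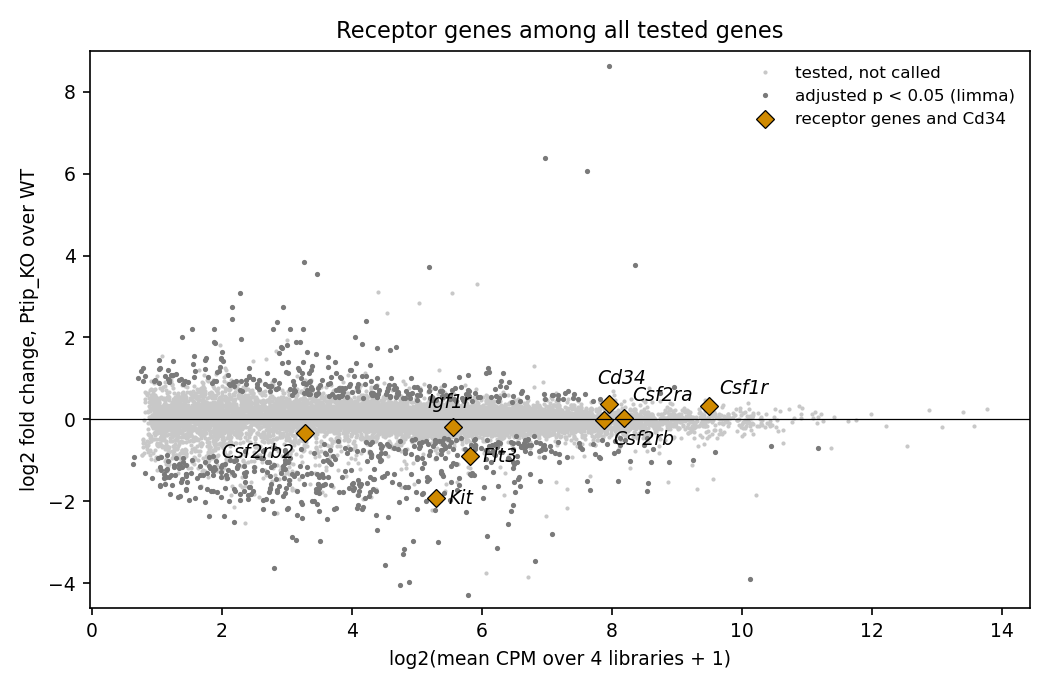
log2 fold change of Ptip_KO over WT against log2(mean CPM + 1) for 12357 tested genes, with the 8 receptor genes as diamonds. Kit (−1.91) and Flt3 (−0.90) lie among the genes called lower, and the other 6 lie within the band of genes that were not called.

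Levels of different genes were compared per kilobase of merged exons. In Ptip_KO the order, in CPM per kilobase, was Csf1r at 139 ± 5.22, Csf2ra at 103 ± 12.5, Cd34 at 38.4 ± 1.54, Csf2rb at 32.3 ± 2.04, Flt3 at 6.26 ± 0.948, Igf1r at 2.56 ± 0.162, Kit at 1.71 ± 0.132 and Csf2rb2 at 1.60 ± 0.255 (SD, n = 2). In WT it was Csf1r at 111 ± 8.72, Csf2ra at 99.9 ± 7.54, Csf2rb at 32.7 ± 5.51, Cd34 at 30.0 ± 5.27, Flt3 at 11.8 ± 1.17, Kit at 6.88 ± 1.87, Igf1r at 2.93 ± 0.506 and Csf2rb2 at 2.07 ± 0.128. Kit stood above Igf1r in both WT libraries and below it in both Ptip_KO libraries. Within their spread, Kit and Csf2rb2 did not differ in Ptip_KO, and Csf2rb and Cd34, and Csf1r and Csf2ra, did not differ in WT. Merged exons include rarely used ones, so a gene with long or alternative ends is understated on this scale.

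Among the genes of the pathway around these receptors, 3 of 93 tested were called, 1 higher and 2 lower. That is 3.23%, where 6.29% of all tested genes were called. The lists hold ligands, other receptors, signal relays, signal brakes, IGF binding proteins, progenitor transcription factors and stage genes. Which share was higher depended on the setting. It was 17.2% of the lists (16 genes) against 12.1% of all tested genes without WT replicate 1, 12.9% (12 genes) against 13.1% without WT replicate 2, 18.3% (17 genes) against 15.4% by DESeq2, and 16.1% (15 genes) against 13.9% with a replicate block. At an unadjusted limma p under 0.05, the background for the list counts that follow is 23.8% of all tested genes.

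Of 12 tested other receptors, 2 fell and 0 rose, with a median log2 fold change of −0.34 where all tested genes had 0.0032. Met, the receptor for hepatocyte growth factor, was at 156 and 149 CPM in Ptip_KO, against 283 and 266 CPM in WT (log2 fold change −0.84, standard error 0.087, limma adjusted p = 0.00993). Axl, a receptor for Gas6, was at 4.57 and 4.68 CPM in Ptip_KO, against 12.0 and 14.5 CPM in WT (log2 fold change −1.33, standard error 0.138, limma adjusted p = 0.00993). Both were lower in both Ptip_KO libraries, as Kit and Flt3 were. The erythropoietin receptor gene Epor was at 0.946 and 2.51 CPM in Ptip_KO, against 4.34 and 7.99 CPM in WT, and was not called by limma (adjusted p = 0.0850) but was called lower by DESeq2 (0.00904). DESeq2 called 4 of the 12 other receptors and edgeR 2, and 6 had an unadjusted limma p under 0.05.

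Of the 12 ligand genes, 4 were in the table and 2 were tested, with 0 called by limma, edgeR or DESeq2 and 0 at an unadjusted limma p under 0.05. Csf1, the ligand of Csf1r, was at 3.45 and 5.58 CPM in Ptip_KO, against 5.77 and 7.91 CPM in WT (limma adjusted p = 0.261). Flt3l, the ligand of Flt3, was at 2.63 and 2.23 CPM in Ptip_KO, against 2.43 and 2.87 CPM in WT (limma adjusted p = 0.789), and 22.1% of its exon bases are shared with another gene on the same strand. Kitl, the ligand of Kit, was between 0.0571 and 0.228 CPM in all libraries and was not tested.

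Of 29 tested genes that relay receptor signals, 0 were called by limma, 0 by edgeR and 5 by DESeq2, and 5 had an unadjusted limma p under 0.05, a share below that background. Their median log2 fold change was 0.02. The smallest p belonged to Irs2, an adaptor of the insulin and IGF1 receptors, at 59.2 and 65.4 CPM in Ptip_KO, against 46.6 and 41.8 CPM in WT (limma adjusted p = 0.0547, DESeq2 adjusted p = 0.00110). Next was the SRC family kinase gene Fyn, at 26.7 and 29.0 CPM in Ptip_KO, against 39.7 and 36.1 CPM in WT (limma adjusted p = 0.0712). JAK2 and STAT5 carry signals of the shared beta chain. Jak2 was at 137 and 125 CPM in Ptip_KO, against 146 and 149 CPM in WT (limma adjusted p = 0.323), and Stat5a and Stat5b had limma adjusted p of 0.841 and 0.868.

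Of 20 tested genes that brake these signals, 1 rose and 0 fell by limma, 2 were called by edgeR and 2 by DESeq2, and the median log2 fold change was −0.0051. Dok2, an adaptor that recruits RasGAP and restrains myeloid growth signals, was at 31.8 and 30.8 CPM in Ptip_KO, against 8.05 and 9.29 CPM in WT. The replicates lay close together and the groups far apart (log2 fold change 1.74, standard error 0.115, limma adjusted p = 0.00398, higher in both Ptip_KO libraries), 3.61 times the WT level. Its relative Dok1 was at 26.7 and 26.7 CPM in Ptip_KO, against 38.7 and 35.1 CPM in WT, with a log2 fold change of −0.45. Dok1 missed the threshold by limma (adjusted p = 0.0580) and passed it by edgeR (0.0467) and DESeq2 (0.00188). Dok2 (ENSMUSG00000022102.13) lies on chromosome 14 at 70766036 to 70778495.

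Of 16 tested transcription factors of progenitors and 13 tested stage genes, 0 were called by limma or edgeR, with medians of −0.12 and −0.09. DESeq2 called 1 of the factors and 4 of the stage genes, and 3 factors and 4 stage genes had an unadjusted limma p under 0.05, where 23.8% of all tested genes did. Runx1 had the smallest p of the factors, at 194 and 185 CPM in Ptip_KO, against 159 and 141 CPM in WT (limma adjusted p = 0.107, DESeq2 adjusted p = 0.00483). Meis1, which marks early progenitors, was at 17.7 and 19.2 CPM in Ptip_KO, against 10.1 and 14.8 CPM in WT (limma adjusted p = 0.151), and 9.77% of its exon bases are shared with another gene on the same strand. Of the stage genes, Ly6a, which encodes SCA-1, was at 1.80 and 2.26 CPM in Ptip_KO, against 3.57 and 4.78 CPM in WT (limma adjusted p = 0.0734). Eng, which encodes endoglin, was at 21.9 and 25.4 CPM in Ptip_KO, against 31.3 and 39.1 CPM in WT (limma adjusted p = 0.0862). Mpo, the peroxidase gene of granulocyte and monocyte progenitors, had between 5885 and 8481 CPM over the 4 libraries and overlapped between groups.

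**Figure D4:**
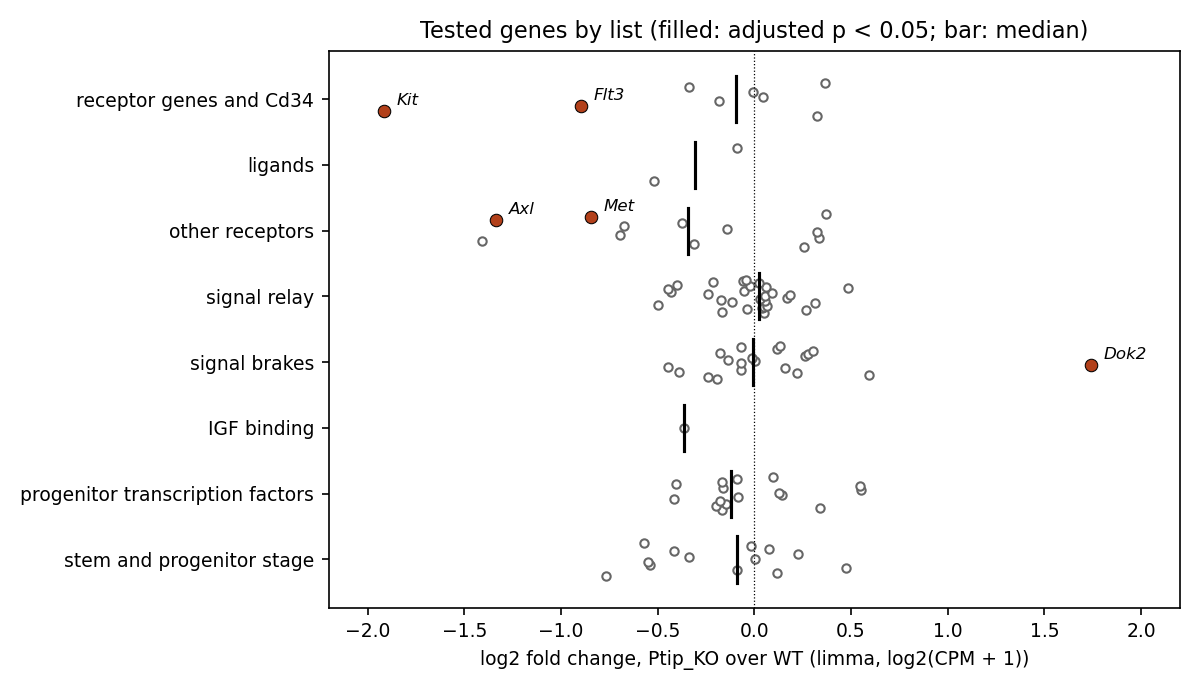
log2 fold change of Ptip_KO over WT of each tested gene by list, with filled points at a limma adjusted p under 0.05 and a bar at the median. Kit, Flt3, Axl and Met are the filled points to the left of 0 and Dok2 (1.74) the filled point to the right.

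In bulk RNA, fewer cells of a type and less RNA per cell cannot be told apart. Kit is also a receptor of erythroid precursors and mast cells, and Flt3 of dendritic cell precursors, so marker lists of these and other cells were set beside them. Over all tested genes, limma called 3.86% lower and 2.43% higher, edgeR 3.37% and 1.97%, and DESeq2 9.11% and 6.31%. These shares are the background for the marker counts here and below. Of 8 erythroid markers, 6 were called lower by limma, 2 by edgeR and 6 by DESeq2. Their summed level was 789 and 1073 CPM in Ptip_KO, against 2014 and 4718 CPM in WT. Klf1, the master factor of red cells, was at 5.23 and 9.13 CPM in Ptip_KO, against 19.9 and 26.3 CPM in WT (log2 fold change −1.59, limma adjusted p = 0.0287, edgeR adjusted p = 0.0542). Of 6 mast cell and basophil markers, 0 were called by limma, edgeR or DESeq2, and 0 had an unadjusted limma p under 0.05. Their sum was 162 and 261 CPM in Ptip_KO, against 151 and 324 CPM in WT, so that the groups overlapped.

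Of 10 dendritic cell markers, 8 were tested, with 5 called lower by limma and by edgeR, 6 by DESeq2 and 2 by limma-voom. The summed level of the 10 was 87.2 and 101 CPM in Ptip_KO, against 302 and 193 CPM in WT. Zbtb46, a factor of conventional dendritic cells, was at 0.972 and 1.30 CPM in Ptip_KO, against 6.96 and 5.03 CPM in WT, while Siglech and Clec9a overlapped or missed the threshold (limma adjusted p = 0.721 and 0.296). Of 9 macrophage markers, 8 were tested, with 6 called lower by limma, by edgeR and by DESeq2 and 5 by limma-voom. The sums of the 9 were 19.9 and 24.3 CPM in Ptip_KO, against 126 and 101 CPM in WT. Adgre1 was the largest part of the WT sums, at 8.67 and 6.79 CPM in Ptip_KO, against 90.5 and 51.7 CPM in WT. Vcam1 overlapped between the groups. Neutrophil markers summed to 1053 and 834 CPM in Ptip_KO, against 1856 and 3700 CPM in WT. Of these 8, limma and edgeR called 0 and DESeq2 3, and 5 had an unadjusted limma p under 0.05, where 23.8% of all tested genes did. Monocyte markers summed to 3819 and 3144 CPM in Ptip_KO, against 4777 and 3847 CPM in WT. Of these 8, limma and edgeR called 1 lower, Cd14, and DESeq2 called 3. B cell markers summed to 56.5 and 52.4 CPM in Ptip_KO, against 30.1 and 48.2 CPM in WT, with 1 of 2 tested called higher by limma and DESeq2 and 0 by edgeR. Sums of T and NK cell, megakaryocyte and endothelial markers overlapped. Nkg7 made up most of the T and NK cell sums, and Pecam1 most of the endothelial sums. Stromal markers stayed under 1 CPM in all 4 genes of the table. The part of these cells in the levels of Kit and Flt3 was not tested.

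**Figure D5:**
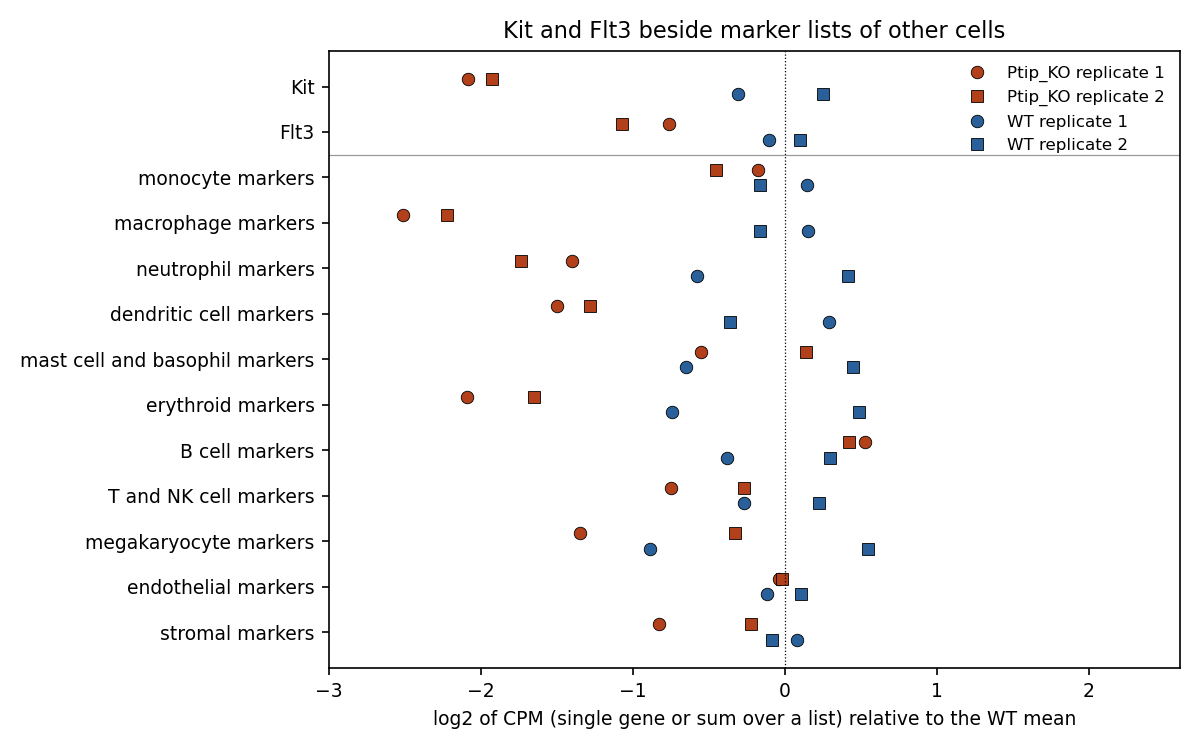
log2 of CPM relative to the WT mean, for Kit and Flt3 and for the sum of each marker list, in every library. Kit, Flt3 and the macrophage, neutrophil, dendritic cell and erythroid sums were lower in both Ptip_KO libraries than in both WT libraries. Mast cell and basophil sums overlapped. Monocyte and stromal sums were lower too, but the monocyte sums nearly met (3819 CPM in Ptip_KO replicate 1, 3847 CPM in WT replicate 2). All 4 stromal genes were under 1 CPM. Singly, 3 of 8 monocyte and 5 of 8 neutrophil markers were lower in both Ptip_KO libraries, as were 27.3% of all tested genes.

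The genes most like Kit and Flt3 across the 4 libraries were found by the Euclidean distance between centred log2(CPM + 1) profiles, among 9990 genes with a mean of at least 5 CPM. Nearest to Kit were Igkv10-96 (distance 0.237), Fmnl2 (0.240) and P2ry2 (0.269). Fmnl2 was at 2.43 and 2.14 CPM in Ptip_KO, against 9.67 and 12.7 CPM in WT, and P2ry2 at 1.73 and 1.73 CPM in Ptip_KO, against 9.10 and 10.8 CPM in WT. Nearest to Flt3 were B430306N03Rik (0.0621), Slc16a3 (0.0657) and Clec4e (0.111). Slc16a3 was at 46.0 and 35.7 CPM in Ptip_KO, against 71.3 and 78.6 CPM in WT. Igkv10-96 and B430306N03Rik each have 1 near-identical copy, so their counts are uncertain. With 4 points a profile, such likeness is a description of these libraries.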

How the data were processed

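The labels describe stranded TruSeq mRNA libraries from Illumina. Among the tools, TopHat2 2.0.10, HTSeq 0.6.0 and edgeR 3.8.6 appear in the submitters' processing notes with the build mm10, without roles or use of strand. The authors deposited 1 normalized signal value per gene and library (edgeR's CPM, scaled to an effective library size). All 18276 values of each library were whole multiples of 1 read within 0.01 read (100%), which gave 67592972 to 77773478 reads. A gene with 0 reads could have up to 3, which is 0.0380 to 0.0428 CPM here (counting error only).

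The 12357 genes that reached 1 CPM in 2 or more libraries entered limma 3.58.1 (R 4.3.3) on log2(CPM + 1), trended prior, genotype as the only term, two-sided, Benjamini-Hochberg at 0.05. This scale understates changes of low genes. Recovered reads were tested with edgeR 4.0.16, which called 660 genes, DESeq2 1.42.0 and limma-voom. Other alternatives were pseudocounts of 0.25 and 5, no filter or 5 CPM, a common sum or median-of-ratios scaling, a robust prior, a replicate block, and leaving out each library. The fit was tested on simulated data. Gene models are GENCODE M21 on GRCm38, which is mm10, and 92.2% of identifiers carried the same version there. Near-identical copies were found with BLAST 2.17.0 (at least 95% identity over 50% of the shorter transcript and 200 bases). RefSeq promoter windows were at hand for 6 of 8 members, and not for Csf1r and Csf2rb.

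Members and lists were chosen with earlier results of these data known. Named were the members, Paxip1, per list the called genes (up to 4) or the 2 smallest p, and the 3 nearest profiles. Other list and marker genes, Xist, Ddx3y and Insr were named after their values were seen.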

Additional observations from a re-analysis of the deposited data

How the results depend on the processing

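Kit and Flt3 were lower and past the threshold in all 15 alternatives, with log2 fold changes of −2.19 to −1.64 for Kit and −1.05 to −0.75 for Flt3, and limma, edgeR or DESeq2 adjusted p of at most 0.0288 and 0.0481. Met, Axl and Dok2 also kept their calls in all 15. Of the other members, Csf1r was called by DESeq2 and Cd34 without WT replicate 2, and 0 alternatives called Igf1r, Csf2ra, Csf2rb or Csf2rb2. Directions turned for members near 0. Csf2rb was at 0.041 with a common sum, and at −0.18 to 0.16 when each library was left out (0.055 without Ptip_KO replicate 2, 0.16 without WT replicate 1). Csf2ra was at −0.080 to 0.17 when each was left out (−0.080 without Ptip_KO replicate 1, −0.034 without WT replicate 1). The log2 difference of the Csf2ra to Csf2rb ratio ran from −0.20 to 0.30 when each library was left out, and was below 0 at −0.0065 without Ptip_KO replicate 1. The cause was not tested.

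The 777 calls over all genes became 1906 by DESeq2 and 452 to 1620 when each library was left out (452 and 476 without Ptip_KO replicates 1 and 2, 1495 and 1620 without WT replicates 1 and 2). Each such fit leaves 1 library in a group, which is assumed to vary like the other group. The calls higher in Ptip_KO were 38.6% of all calls, and 25% and 25.8% without Ptip_KO replicates 1 and 2. The 3 calls in the pathway and stage lists became 17 by DESeq2, 5 with a common sum, 5 with a robust prior and 3 to 16 when each library was left out. With the replicate number as a block, 1721 genes and 15 list genes were called, and 2 members. Same-numbered libraries deviated together (r = 0.332 across genes), but there are 2 pairs and no label ties the numbers to an animal or day. The numbers come from the sample titles, and the deposited column of WT replicate 2 is numbered otherwise. The paired libraries thus share only a number in their titles.

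With 2 samples a group, Csf1r, Cd34 and Csf2rb2 have intervals that reach from near 0 to a change of over 0.5 on the log2 scale, so that small changes were not detectable here.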

Other observations

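Kit and Flt3 lie on chromosome 5 with the deleted gene. Of 793 tested genes of chromosome 5, 18 were called higher and 33 lower by limma, 6.43%, where 6.29% of all tested genes were called. Within 5 Mb of Paxip1, 3 of 76 tested genes were higher and 1 lower, which was Paxip1 itself. Within 5 Mb of Kit, 0 of 33 other tested genes were called by limma or edgeR, 4 by DESeq2 and 5 at an unadjusted limma p under 0.05. Within 5 Mb of Flt3, 0 of 69 other tested genes were higher and 1 lower by limma, with 1 called by edgeR, 3 by DESeq2 and 9 at an unadjusted limma p under 0.05. Of all tested genes, 23.8% had such a p and DESeq2 called 15.4%.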
